A study of Homo sapiens with 4 samples.

Results

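Genes of RNA decay, 46 in number, were compared between BRD9 KO and LacZ control cells, and their transcripts moved little. They are the genes named EXOSC, UPF, SMG and CNOT with a number, both XRN exonucleases, DCP1A, DCP1B, DCP2 and DCPS, EDC3 and EDC4, together with DIS3, DIS3L, DIS3L2, PARN, PAN2, PAN3, TOB1 and TOB2. Members were picked by gene symbol alone, 46 of the 57820 gene models in the tables. CNOT9 carries its older symbol RQCD1 there and therefore fell outside the symbol rule. It is described with the partners.

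Messenger RNAs are degraded from both ends, and for most of them decay opens with shortening of the poly(A) tail. PAN2 and PAN3 form one deadenylase and CCR4-NOT, built on the scaffold CNOT1, is the major one. The decapping enzyme DCP2 then removes the cap and XRN1 degrades the body from the 5′ end, while the RNA exosome, a barrel of EXOSC subunits with the ribonucleases EXOSC10 and DIS3, degrades RNA from the 3′ end. Nonsense-mediated decay, in which the helicase UPF1 is phosphorylated by the kinase SMG1, feeds transcripts with premature stop codons into the same enzymes and also tunes many normal transcripts.

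The data were 4 RNA-seq libraries of G401, an established rhabdoid tumor line with loss of SMARCB1, a subunit of SWI/SNF chromatin remodelers. The groups were BRD9 KO (2 libraries), in which a guide RNA targeted BRD9, a bromodomain subunit of one form of SWI/SNF, and LacZ control (2 libraries), in which the guide targeted the bacterial gene LacZ. By the methods of the study, both groups derive from a G401 line that stably expresses Cas9 and received their guides by lentivirus with puromycin selection. No BRD9-deficient clone of G401 could be recovered in the study, no clone is named for these libraries, and the day of harvest is not given in the sources used here. Each library holds the RNA of many cells, and fewer cells expressing a gene cannot be told apart from less RNA per cell.

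Library totals ran from 15053195 to 19559200 counts. BRD9 itself stood at 29.4 and 26.8 counts-per-million (CPM, scaled between libraries by the TMM method of edgeR) in BRD9 KO and at 48.2 and 53.8 CPM in the controls, a log2 fold change of -0.86 ± 0.07 (SE, edgeR adjusted p = 2.84e-09). Its transcript was therefore at 55.1% of the control level; editing of the gene itself is not read out by these counts. SMARCB1 was at 0 counts in all 4 libraries, and VIM, a mesenchymal filament gene, was abundant (1269 and 1276 CPM in BRD9 KO, 1788 and 1797 CPM in the controls). Markers of leukocytes (PTPRC) and endothelium (CDH5) were at 0 counts, and EPCAM, CDH1 and ALB reached at most 6 counts in a library. Mitochondrial transcripts took 8.15 to 8.48% of counts, with both BRD9 KO libraries below both controls, and the part of this and of VIM in the results was not tested.

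To show where these genes start, their promoters (from 250 bases before to 50 after the RefSeq start, GRCh38.p14 table) were searched on both strands for 5 motifs. Promoters were found for 40 of the 46 members, and the first one listed for each was used. The set of all 35116 promoters was not limited to genes tested here, so its shares are not a matched background. The ETS motif CCGGAAG lay in 7 of the 40 (17.5%) and in 10.3% of all 35116 promoters, the E-box CACGTG in 4 (7.26% of all), the YY1 core in 2 (1.2% of all), and the NRF1 core and the CRE TGACGTCA in 1 each (1.24% and 1.85% of all). No match overlapped that of another motif. Of the changed members with a promoter (9 higher and 5 lower), DIS3 and PARN alone held any of the 5 motifs, in both cases ETS, and the 30 bases around each match are given here for that reason, 5′ to 3′ on the strand of the gene, with the motif in capitals. The DIS3 window lies on the minus strand at chr13:73356259-73356288 and the PARN window on the minus strand at chr16:14724095-14724124, both found by their letters in GRCh37.
DIS3: ccgCCGGAAGtcaactctcccggatgttcc
PARN: gcgcgctgtttCCGGAAGtcgcggccggcg
The match starts 247 bases before the RefSeq start in DIS3 and at base 5 counted from the start in PARN. The ETS motif also lay in the promoters of DCP1B, DIS3L2, EDC3, EDC4 and UPF3A, which did not change by adjusted p, so it was not confined to changed members. A match of letters is a description and no measurement of binding.

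All 46 members passed the filter on low counts, with 169 to 9112 counts in each library. Levels between genes are compared in transcripts-per-million (TPM), which divides by transcript length. In the controls CNOT1 was highest with a mean of 187 TPM, followed by CNOT7 (96.5 TPM), XRN2 (76.2 TPM), TOB1 (75.9 TPM) and EXOSC10 (72.2 TPM), and XRN1 (12.2 TPM) and CNOT6L (10.3 TPM) closed the order. Of the 45 neighbouring pairs in that order, 13 had control libraries that did not overlap. The members summed to 1824 and 1817 TPM in BRD9 KO and to 1836 and 1771 TPM in the controls, which overlap.

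**Figure D1:**
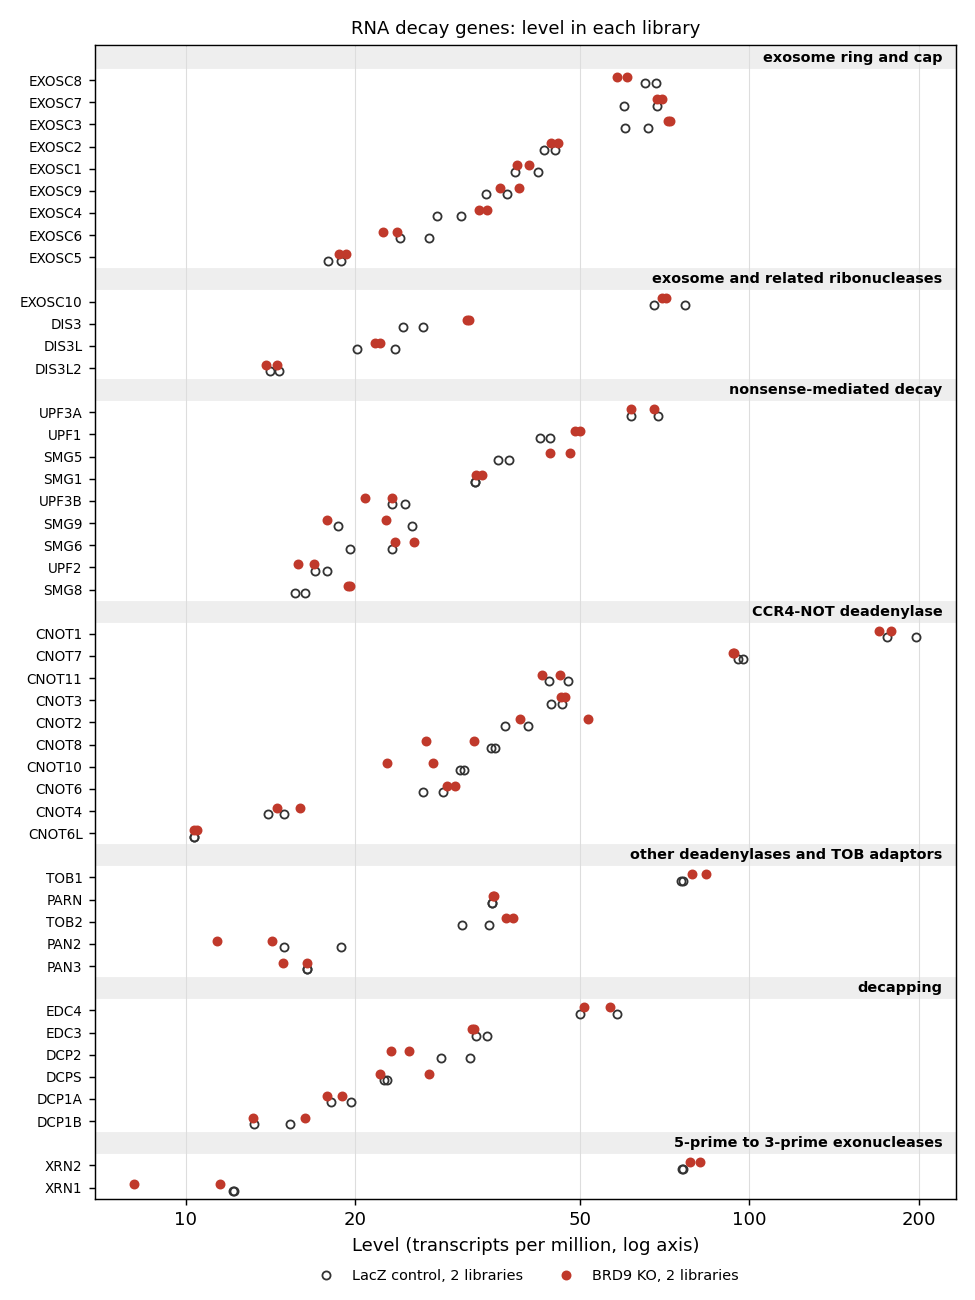
Level of 45 of the members in each of the 4 libraries, in TPM on a log axis, grouped by role. Points of BRD9 KO and LacZ control lie close together for nearly all genes, with CNOT1 at the top and CNOT6L and XRN1 at the lower end.

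Of the 46 members, 10 were higher and 7 lower in BRD9 KO (edgeR, adjusted p under 0.05), and 29 did not pass. That is 21.7% and 15.2% of the members, against 20.5% higher and 18.1% lower among all 15288 genes tested (38.6% in either direction). The share of members that changed was near the background, and the changes were small: the median absolute log2 fold change was 0.08 for members and 0.18 for all genes, no member reached 1.5-fold while 11.7% of all genes did, and the largest was 1.41-fold. The members were also more abundant, with a median of 50.6 CPM in the controls against 22.9 CPM for all genes. The median log2 fold change was -0.00 for the members and -0.01 for all genes tested, with 23 members above and 23 below 0. Both BRD9 KO libraries lay above both controls for 17 members (34.1% of all genes did so) and below them for 16 (34.5% of all genes), so that the groups did not overlap for 33 members (71.7%, against 68.6% of all genes). On counts simulated at these depths and spreads, the edgeR test made more false calls than its threshold allows and missed many of the smallest changes, so a call near the threshold is weak evidence. The counts of members rest on CPM. With limma on log2(TPM + 1), which divides by the transcript length estimated in each library, 2 members (DIS3 and SMG5) were higher and none lower by adjusted p under 0.05, against 8.77% and 7.21% of all genes. On that scale all the other called members missed the threshold, and CNOT6L among them also changed sign.

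**Figure D2:**
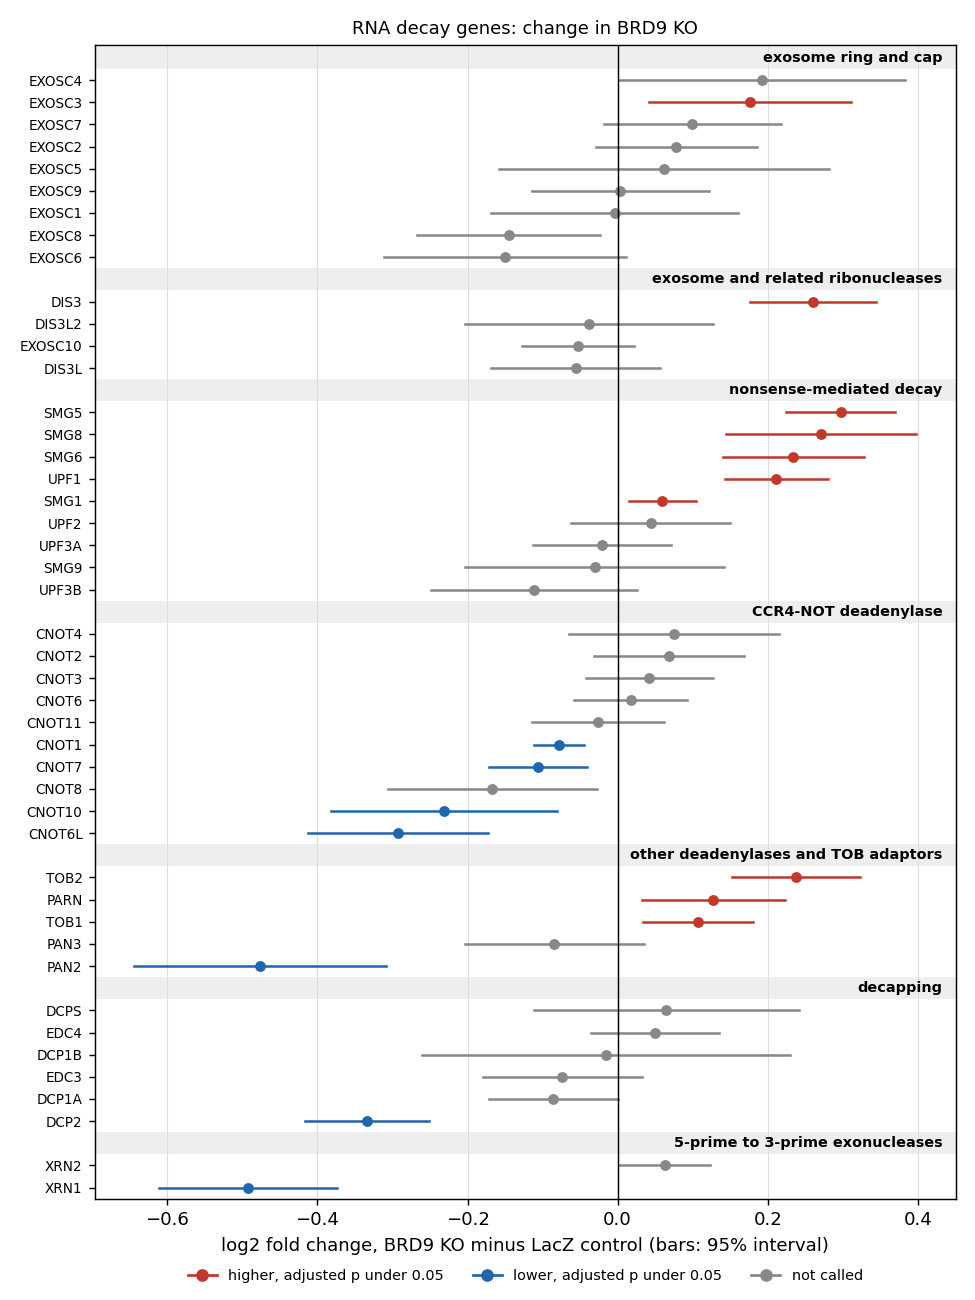
Log2 fold change of 45 of the members in BRD9 KO against LacZ control, with its 95% interval from edgeR, ordered by role and marked by call. XRN1 and PAN2 lie farthest below 0 and SMG5, SMG8 and DIS3 farthest above it.

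Among the 9 subunits of the exosome ring and cap, 1 rose, none fell and 8 did not pass, with a median log2 fold change of 0.06. The share that rose was 11.1%, and of all genes tested 20.5% rose and 18.1% fell. Ring subunits (EXOSC4 to EXOSC9) form the barrel through which RNA is threaded and cap subunits (EXOSC1 to EXOSC3) bind the entering RNA. EXOSC3, a cap subunit on chr9:37759231-37832114 (GRCh37, minus strand), stood at 32.7 and 32.6 CPM in BRD9 KO and at 27.7 and 29.9 CPM in the controls, without overlap, a log2 fold change of 0.18 ± 0.06 (SE, edgeR adjusted p = 0.0367). That call did not hold without BRD9 KO replicate 1 (adjusted p = 0.123), BRD9 KO replicate 2 (0.0951) or LacZ control replicate 1 (0.225), and its edgeR, limma and DESeq2 values ranged from 0.0213 to 0.226 over the 13 alternatives. EXOSC4 had a similar estimate, 0.19 with a 95% interval from 0.00 to 0.38, and an adjusted p of 0.104 by edgeR. EXOSC8 was at 35.8 and 34.2 CPM against 39.5 and 38.1 CPM, log2 fold change -0.15 (edgeR adjusted p = 0.0549, 0.0359 to 0.291 over the alternatives). The other 6 subunits (EXOSC1, EXOSC2, EXOSC5, EXOSC6, EXOSC7 and EXOSC9) had log2 fold changes from -0.15 to 0.10. Although they are parts of one complex, transcript levels of the 9 subunits differed among themselves, from 18.4 TPM for EXOSC5 to 66.9 TPM for EXOSC8 in the controls.

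Of the 4 ribonucleases of the exosome and its relatives, 1 rose (25%, against 20.5% of all genes tested) and 3 did not pass (median -0.05 on the log2 scale). DIS3, the catalytic subunit of the nuclear exosome, on chr13:73326307-73356234 (minus strand), stood at 76.4 and 76.7 CPM in BRD9 KO and at 65.6 and 62.3 CPM in the controls. Both BRD9 KO libraries lay above both controls, a rise of 19.8% (log2 fold change 0.26 ± 0.04 SE, edgeR adjusted p = 3.22e-05). In TPM the values were 31.8 and 31.5 against 26.4 and 24.4, again without overlap. Neither of its relatives passed: DIS3L, which serves the cytoplasmic exosome, had log2 fold change -0.06 (edgeR adjusted p = 0.448), and DIS3L2, which acts without the exosome on uridylated RNA, had -0.04 (edgeR adjusted p = 0.745). As a share of the summed TPM of DIS3 and DIS3L, DIS3 made up 59.5 and 58.8% in BRD9 KO and 52.9 and 54.7% in the controls. EXOSC10, the second nuclease of the nuclear exosome, was at 101 and 99.3 CPM against 107 and 101 CPM, log2 fold change -0.05 (edgeR adjusted p = 0.267).

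In the nonsense-mediated decay group 5 of 10 members rose, none fell and 5 did not pass, with a median log2 fold change of 0.05. The share that rose was 50%, and of all genes tested 20.5% rose and 18.1% fell. The largest change was that of SMG5, which recruits phosphatase and decay enzymes to phosphorylated UPF1 (chr1:156219015-156252616, minus strand). Its libraries read 113 and 109 CPM in BRD9 KO and 89.9 and 91.2 CPM in the controls, without overlap, a rise of 22.9% (log2 fold change 0.30 ± 0.03 SE, edgeR adjusted p = 1.14e-06). In TPM, SMG5 read 48.1 and 44.4 against 35.9 and 37.5. SMG8, a subunit of the SMG1 kinase complex (chr17:57286761-57292600, plus strand), was at 35.7 and 36.2 CPM in BRD9 KO and at 30.2 and 29.3 CPM in the controls (0.27 ± 0.06, edgeR adjusted p = 0.00132). SMG6, the endonuclease that cuts near the premature stop codon (chr17:1963133-2207079, minus strand), was at 65.2 and 70.0 CPM against 57.6 and 57.0 CPM (0.23 ± 0.04, edgeR adjusted p = 0.000316). UPF1 (chr19:18942768-18979039, plus strand) was at 149 and 146 CPM against 123 and 131 CPM (0.21 ± 0.03, edgeR adjusted p = 3.15e-05). For each of these 4 genes both BRD9 KO libraries lay above both controls in CPM and in TPM. By limma on log2(TPM + 1) the adjusted p was 0.0688 for SMG8, 0.26 for SMG6 and 0.0733 for UPF1, in each case the highest over the 13 alternatives (lowest 7.09e-05, 3.14e-07 and 1.85e-10).

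SMG1, the kinase itself, rose least, from 253 and 252 CPM in the controls to 262 and 264 CPM in BRD9 KO (0.06 ± 0.02, edgeR adjusted p = 0.0331). In TPM, SMG1 read 32.8 and 33.6 in BRD9 KO against 32.6 and 32.7 in the controls (limma on log2(TPM + 1), adjusted p = 0.82). Its estimated transcripts were longer in BRD9 KO (13346 and 13113 bases against 12870 and 12781). The call on SMG1 was lost whichever single library was left out, with adjusted p = 0.0719 and 0.137 without BRD9 KO replicate 1 and 2 and 0.117 and 0.157 without LacZ control replicate 1 and 2, within a range of 0.026 to 0.82 over the 13 alternatives. SMG1 also has copies in the genome: SMG1P1 was listed at 592, 390, 494 and 428 counts in BRD9 KO 1 and 2 and LacZ control 1 and 2, with a posterior SD of up to 22.9% of its count. For SMG1 itself the posterior SD was at most 0.39% of the count. Whether reads shared with copies bear on its small rise was not tested. The adaptors UPF2 (0.04), UPF3A (-0.02) and UPF3B (-0.11) and SMG9 (-0.03), the other subunit of the kinase complex, did not pass, with edgeR adjusted p from 0.196 to 0.807. UPF3A made up 76.5 and 72.6% of the summed TPM of UPF3A and UPF3B in BRD9 KO and 71.6 and 74.7% in the controls, which overlap.

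The 10 CCR4-NOT members held 4 that fell, none that rose and 6 that did not pass (median -0.05 on the log2 scale). The share that fell was 40%, and of all genes tested 18.1% fell and 20.5% rose. CNOT6L, one of the paired nucleases CNOT6 and CNOT6L (chr4:78634541-78740769, minus strand), was at 33.2 and 32.3 CPM in BRD9 KO and at 40.5 and 39.8 CPM in the controls, without overlap (-0.29 ± 0.06 SE, edgeR adjusted p = 0.000399). In TPM it was level, 10.4 and 10.5 against 10.3 and 10.4, and its fold change took the other sign with limma on log2(TPM + 1) (0.01, adjusted p = 0.955). The transcript length estimated for CNOT6L, weighted over its isoforms, was 5387 and 5177 bases in BRD9 KO and 6542 and 6394 bases in the controls, so that the lower count went with shorter transcripts and whether fewer molecules were present is not settled. CNOT6 was at 85.5 and 86.3 CPM against 85.0 and 84.7 CPM (0.02, edgeR adjusted p = 0.755), and it made up 74.4 and 73.5% of the summed TPM of the pair in BRD9 KO and 73.5 and 71.8% in the controls.

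CNOT1, the scaffold, fell from 497 and 492 CPM to 467 and 469 CPM (-0.08, edgeR adjusted p = 0.000512), without overlap in CPM, while its TPM overlapped (178 and 170 against 198 and 176; limma on log2(TPM + 1), adjusted p = 0.309, range 5.61e-05 to 0.309). CNOT7, a nuclease of the second pair, fell from 129 and 125 CPM to 118 and 118 CPM (-0.11, edgeR adjusted p = 0.0113). In TPM, CNOT7 read 94.0 and 93.6 in BRD9 KO against 97.6 and 95.4 in the controls (limma on log2(TPM + 1), adjusted p = 0.518). Its estimated transcripts were shorter in BRD9 KO (2150 and 2163 bases against 2253 and 2221). The call on CNOT7 was lost without BRD9 KO replicate 1 (adjusted p = 0.0625) and without LacZ control replicate 1 (0.125), with a range of 0.00502 to 0.518 over the alternatives. Its partner CNOT8 was at 38.5 and 45.2 CPM against 46.4 and 46.9 CPM, a log2 fold change of -0.17 with a 95% interval from -0.31 to -0.03 (edgeR adjusted p = 0.0546). The 2 BRD9 KO libraries of CNOT8 differed more from each other than the second one did from the controls, and without BRD9 KO replicate 2 the adjusted p was 0.00124 (0.00124 to 0.645 over the alternatives). CNOT10, a subunit of the N-terminal module of CNOT1, was at 27.4 and 29.6 CPM against 35.8 and 31.2 CPM (-0.23, edgeR adjusted p = 0.0152). The spread of CNOT10 between the controls was wide, and its call was lost without BRD9 KO replicate 1 (adjusted p = 0.152) and without LacZ control replicate 1 (0.237), with a range of 0.00654 to 0.237. CNOT2 (0.07), CNOT3 (0.04), the ubiquitin ligase CNOT4 (0.07) and CNOT11 (-0.03) did not pass, with edgeR adjusted p from 0.275 to 0.686.

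Outside CCR4-NOT, 3 of the 5 other deadenylase genes and TOB adaptors rose, 1 fell and 1 did not pass. These shares were 60% higher and 20% lower, against 20.5% and 18.1% of all genes tested. PAN2, the nuclease of the complex that trims long tails (chr12:56710007-56727837, minus strand), was at 16.7 and 16.0 CPM in BRD9 KO and at 23.5 and 22.2 CPM in the controls, without overlap. PAN2 thus fell by 28.1% (log2 fold change -0.48 ± 0.08 SE, edgeR adjusted p = 8.64e-05), the largest change among the members after XRN1. By limma on log2(TPM + 1) its adjusted p was 0.152 and that of TOB2 0.13 (lowest over the alternatives 1.17e-06 and 7.77e-10). Its partner PAN3, which tethers it to poly(A)-binding protein, was at 41.0 and 37.7 CPM against 42.4 and 41.4 CPM (-0.08, edgeR adjusted p = 0.262). TOB2, an adaptor that brings CCR4-NOT to its targets (chr22:41829498-41842805, minus strand), was at 103 and 98.0 CPM against 89.0 and 82.1 CPM, a rise of 17.9% (0.24 ± 0.04, edgeR adjusted p = 0.000108). Its relative TOB1 was at 106 and 102 CPM against 95.5 and 97.6 CPM (0.11, edgeR adjusted p = 0.0201), a call lost without BRD9 KO replicate 1 (0.173), LacZ control replicate 1 (0.14) and LacZ control replicate 2 (0.0651), with a range of 0.00619 to 0.212. In both TOB genes the groups did not overlap, and TOB1 made up 68.7 and 68.1% of their summed TPM in BRD9 KO and 68.8 and 71.0% in the controls. PARN, the poly(A)-specific ribonuclease whose promoter window is given above, was at 58.6 and 59.3 CPM against 55.2 and 52.9 CPM (0.13, edgeR adjusted p = 0.0328). In TPM, PARN was 35.3 and 35.2 against 35.0 and 35.0, with longer estimated transcripts in BRD9 KO (2833 and 2872 bases against 2681 and 2558). The call on PARN was lost without BRD9 KO replicate 1 (adjusted p = 0.0735), BRD9 KO replicate 2 (0.106) and LacZ control replicate 2 (0.223), with a range of 0.0127 to 0.927.

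Among the 6 decapping genes 1 fell, none rose and 5 did not pass (median -0.04 on the log2 scale). The share that fell was 16.7%, and of all genes tested 18.1% fell and 20.5% rose. DCP2, the enzyme that cleaves the cap (chr5:112312399-112357892, plus strand), was at 92.3 and 100 CPM in BRD9 KO and at 118 and 124 CPM in the controls. The groups did not overlap, and DCP2 fell by 20.7% (log2 fold change -0.33 ± 0.04 SE, edgeR adjusted p = 2.01e-06). In TPM the values were 23.1 and 24.9 against 28.3 and 32.0, also without overlap, with adjusted p = 0.0619 by limma on log2(TPM + 1), the highest over its 13 alternatives (lowest 7.66e-17). The activators DCP1A (-0.09) and DCP1B (-0.02) did not pass. Nor did the enhancers of decapping EDC3 (-0.07) and EDC4 (0.05) and the scavenger enzyme DCPS (0.06). For these 5 genes the edgeR adjusted p ran from 0.115 to 0.933.

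Of the 5′ to 3′ exonucleases, XRN1 changed and XRN2 did not pass. The share that fell was 50% of only 2 genes, and of all genes tested 18.1% fell and 20.5% rose. XRN1, the cytoplasmic enzyme (chr3:142025449-142166904, minus strand), was at 39.2 and 34.9 CPM in BRD9 KO and at 52.4 and 52.4 CPM in the controls. XRN1 fell by 28.9% (log2 fold change -0.49 ± 0.06 SE, 95% interval -0.61 to -0.37, edgeR adjusted p = 9.28e-07), the largest change of the 46 members, and the groups did not overlap. In TPM it was 11.5 and 8.11 against 12.2 and 12.2. The estimated transcript length of XRN1 was 5728 bases in BRD9 KO replicate 1, 7212 bases in BRD9 KO replicate 2 and 7187 and 7155 bases in the controls. By limma on log2(TPM + 1) the difference was -0.30 (adjusted p = 0.263, the highest over its 13 alternatives, lowest 1.43e-17), and the cause of the lost call was not tested. XRN2, the nuclear enzyme that also ends transcription by RNA polymerase II, was at 159 and 166 CPM against 154 and 156 CPM (0.06, edgeR adjusted p = 0.096); without BRD9 KO replicate 1 the adjusted p was 0.0418 (0.0418 to 0.517 over the alternatives).

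A miss of the threshold does not show equal levels. Of the 29 members that did not pass, 25 had a 95% interval that included 0. The bound farther from 0 lay between 0.09 and 0.38 on the log2 scale, so that each interval leaves room for a change of that size. All of these bounds fall short of 1.5-fold. The edgeR fit behind them made too many false calls on simulated counts, so the intervals may be too narrow to exclude 1.5-fold. Exons of 19 members overlap those of another tested gene, and 8 of these are among the 17 that changed: CNOT1, CNOT10, DCP2, DIS3, EXOSC3, SMG6, SMG8 and TOB1. The library kit does not mark strand, so reads of the shared part cannot be assigned to one gene by strand.

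The tables give an isoform-weighted length for each gene in each library. It was longer in both BRD9 KO libraries than in both controls for 8 of 46 members (17.4%, against 16.7% of all genes tested) and shorter for 3 (6.52%, against 14.3%). The group means differed by at least 5% for 9 members, and for 4 of these the libraries of the groups did not overlap. Of the 4, CNOT6L was shorter, at 81.7% of the control length. UPF2 (5193 and 5197 bases against 4610 and 4803), PARN (109% of the control length) and CNOT8 (2462 and 2382 bases against 2239 and 2292) were longer. The other 5 were XRN1, CNOT2, CNOT6, CNOT10 and SMG9, and for XRN1 the shorter mean came from 1 library, BRD9 KO replicate 1. For UPF2 the count was 48.8 and 52.2 CPM against 48.9 and 48.8 CPM and the level 15.8 and 16.9 TPM against 17.8 and 17.0 TPM, so that the sign of its small difference depends on whether length is divided out.

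**Figure D3:**
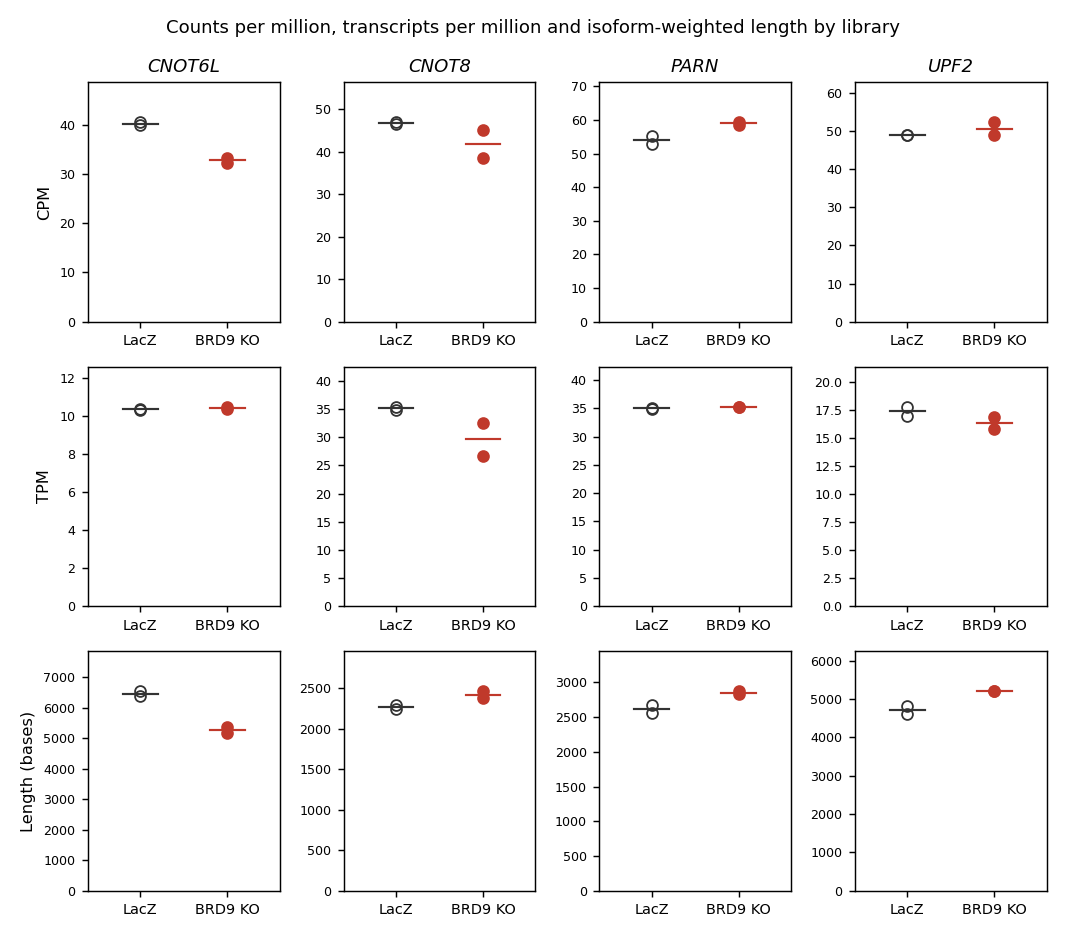
Level in CPM (top row), level in TPM (middle row) and isoform-weighted length in bases (bottom row) of CNOT6L, CNOT8, PARN and UPF2, with 1 point for each library and a line at the group mean. CNOT6L is lower in CPM, level in TPM and shorter in BRD9 KO, and the other genes are longer.

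Factors that work with these enzymes were read from 5 lists, 76 genes of which 75 were tested. Of these 16 rose and 15 fell (21.3% and 20%, against 20.5% and 18.1% of all genes tested), and 44 did not pass. Adaptors of CCR4-NOT and other deadenylation factors held the largest changes, with 3 of 21 tested genes higher (14.3%) and 8 lower (38.1%, against 18.1% of all genes) and a median log2 fold change of -0.07. BTG2, an antiproliferative adaptor that activates deadenylation, was at 90.4 and 85.6 CPM in BRD9 KO and at 49.2 and 50.7 CPM in the controls (0.82 ± 0.04 SE, edgeR adjusted p = 9.41e-12). TNRC6B, the GW182 protein that links microRNA-bound Argonaute to CCR4-NOT, was at 134 and 127 CPM against 186 and 177 CPM (-0.47 ± 0.03, edgeR adjusted p = 4.32e-10). Both changes exceeded the spread between replicates without overlap, and both held under all 13 alternatives. ZFP36L1 and ZFP36L2, which bring CCR4-NOT to AU-rich elements, were lower by smaller amounts (-0.11 and -0.09, edgeR adjusted p = 0.000341 and 0.000527), and both missed the threshold by limma on log2(TPM + 1) (adjusted p = 0.0967 and 0.14, the highest of their alternatives, lowest 3.66e-05 and 5.5e-05). Of the relatives of BTG2, named after their values were seen, BTG3 fell (-0.19, edgeR adjusted p = 0.0011) and kept its call under all 13 alternatives. BTG1, at 45 and 35 counts in BRD9 KO and 55 and 56 counts in the controls, had the largest fall of the list (-0.65 ± 0.22, edgeR adjusted p = 0.0278). The call on BTG1 was lost without BRD9 KO replicate 1 or 2 (0.0722 and 0.108) and without LacZ control replicate 1 or 2 (0.14 and 0.0787), with a range of 0.0126 to 0.242. RQCD1, the gene now named CNOT9, did not pass (-0.05, edgeR adjusted p = 0.337).

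Exon junction and termination factors held 5 of 13 higher and 3 lower, 38.5% and 23.1% against 20.5% and 18.1% of all genes. ETF1 and GSPT1, the release factors eRF1 and eRF3a to which UPF1 binds at a stop codon, were higher (0.23 and 0.15, edgeR adjusted p = 4.52e-08 and 9.18e-06), as was the exon junction subunit RBM8A (0.20, edgeR adjusted p = 3.78e-05). PNRC2, a link between UPF1 and the decapping enzyme, was at 175 and 177 CPM in BRD9 KO and at 204 and 219 CPM in the controls (-0.27, edgeR adjusted p = 1.78e-06). For all 4 genes the groups did not overlap. By limma on log2(TPM + 1), RBM8A and PNRC2 missed the threshold (adjusted p = 0.127 and 0.351), the highest of their alternatives (lowest 1.93e-09 and 1.18e-15).

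Of 14 exosome cofactors 2 were higher (14.3%, against 20.5% of all genes) and none lower (18.1% of all genes). MPHOSPH6, a protein that binds the nuclear exosome, was at 23.1 and 21.2 CPM against 16.9 and 16.5 CPM (0.41, edgeR adjusted p = 0.000417). PAPD5, a noncanonical poly(A) polymerase, was at 34.5 and 34.6 CPM against 31.3 and 29.1 CPM (0.20, edgeR adjusted p = 0.0178); its call was lost without BRD9 KO replicate 1 (0.0695), BRD9 KO replicate 2 (0.0577) or LacZ control replicate 2 (0.174), with a range of 0.00647 to 0.218. Among 14 decapping activators and LSM ring genes 1 was higher and 3 lower (7.14% and 21.4%, against 20.5% and 18.1% of all genes). The higher one was PATL1, a scaffold of the decapping complex (0.21, edgeR adjusted p = 2.1e-05). By limma on log2(TPM + 1) its adjusted p was 0.0744, the highest of its alternatives (lowest 1.95e-09). The LSM ring subunits that were lower were LSM5 (-0.17, edgeR adjusted p = 0.0148), LSM3 (-0.16, 0.0326) and LSM4 (-0.09, 0.0486), and none of the 3 held when each library was left out in turn. LSM5 was lost without BRD9 KO replicate 1 (0.0685) and LacZ control replicate 2 (0.168), LSM3 without BRD9 KO replicate 1 (0.198) and LacZ control replicate 1 (0.261), and LSM4 without BRD9 KO replicate 2 (0.268), LacZ control replicate 1 (0.0593) and LacZ control replicate 2 (0.346). Over the alternatives the adjusted p ranged from 0.00773 to 0.168 for LSM5, from 0.0183 to 0.296 for LSM3 and from 0.0251 to 0.346 for LSM4.

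The 13 transcripts often used as readouts of nonsense-mediated decay held 5 higher and 1 lower (38.5% and 7.69%, against 20.5% and 18.1% of all genes), with a median log2 fold change of 0.11. The other 7 did not pass, with log2 fold changes from -0.04 to 0.25. Among them were the transcripts of the list with the highest TPM in the controls. These were GAS5 (0.04, edgeR adjusted p = 0.467), ATF4 (-0.0046, 0.917) and ZFAS1 (-0.04, 0.54). SNHG12, a snoRNA host transcript, was at 12.8 and 11.0 CPM in BRD9 KO and at 8.03 and 7.68 CPM in the controls (0.61, edgeR adjusted p = 0.000425), but by limma on log2(TPM + 1) the adjusted p was 0.131, the highest of its alternatives (lowest 4.74e-06). ATF3, a stress transcription factor, was at 31.0 and 28.7 CPM against 24.3 and 24.8 CPM (0.29, edgeR adjusted p = 0.00275), a call lost without BRD9 KO replicate 1 (0.0576, the highest of its alternatives, lowest 0.000213). SNHG15 was higher (0.33, edgeR adjusted p = 0.014) and GADD45B, a growth arrest gene, lower (-0.23, edgeR adjusted p = 0.0129). Both calls were lost without BRD9 KO replicate 2 (0.0651 and 0.0659) and LacZ control replicate 2 (0.121 and 0.0807), with ranges of 0.00857 to 0.154 and 0.00805 to 0.144. These transcripts are also set by other regulators, and their decay rates were not measured here.

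**Figure D4:**
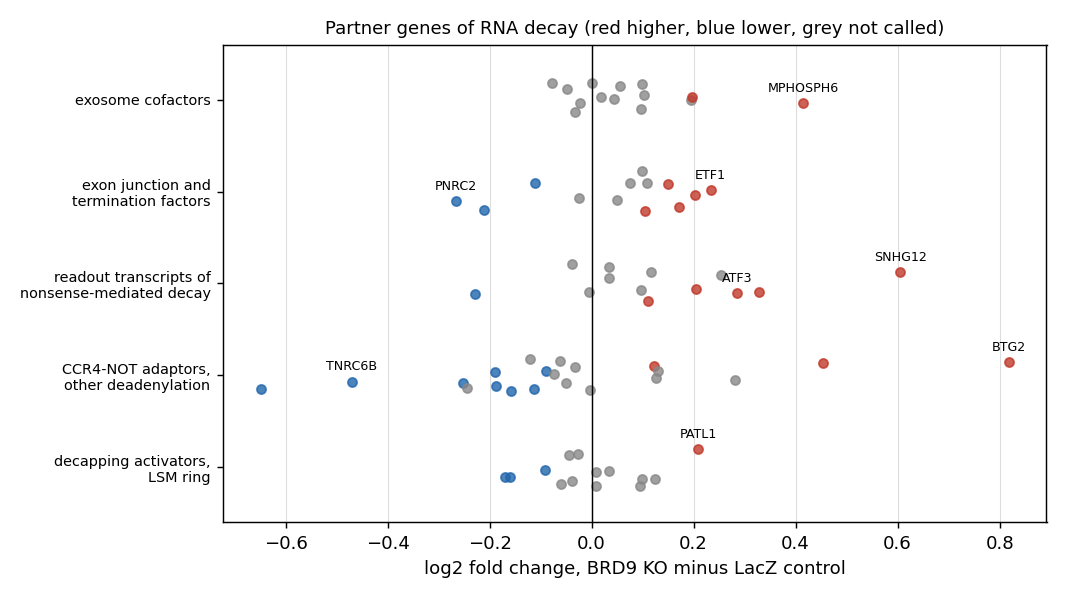
Log2 fold change in BRD9 KO against LacZ control of the 75 tested partner genes in their 5 lists, by edgeR, red where called higher, blue where called lower and grey where not called, with vertical scatter only to separate points. BTG2 (0.82) lies farthest above 0, and TNRC6B (-0.47) is among the lowest.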

How the data were processed

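Libraries of G401 RNA, 4 in all (BRD9 KO and LacZ control, 2 each), were used, with groups taken from the labels. Per the methods and the submitters' processing notes, STAR alignment to hg19 was followed by RSEM quantification, and DESeq2 is also named; no version is stated for any of them. The labels name Direct-zol for RNA extraction and the methods Trizol. The authors deposited RSEM expected counts (estimated counts that split reads shared by several genes), TPM, the posterior SD of each count and an isoform-weighted length, with no scaling between libraries. The posterior SD was at most 1.18% of the count for any member.

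Expected counts were rounded and tested in R 4.3.3 by edgeR 4.0.16 (quasi-likelihood F test, TMM, filterByExpr, robust, no covariate, two-sided, Benjamini-Hochberg over 15288 genes, called at an adjusted p under 0.05). Standard errors follow from the F statistic. Alternatives used DESeq2 1.42.0, limma 3.58.1 on log2(TPM + 1) and other scalings, filters, a threshold of 0.01, a replicate block and omission of each library. Limma on log2(CPM + 1) was added after seeing the data. On simulated data, edgeR estimates matched the set changes in direction and median size, but the test missed many of the smallest. It also made more false calls than the threshold allows. DESeq2 made a smaller share of false calls, also above the threshold. Replicates differed by more than sampling noise (chi-square per degree of freedom 1.59 and 1.62 over genes with at least 20 counts). The methods call them biological, the labels do not, so a p-value here reflects the spread among 4 libraries that may be technical replicates. Depth of 15053195 to 19559200 counts makes 3 counts equal to 0.153 to 0.199 CPM.

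The members and lists were chosen with earlier results of these data known. Named genes are the members (1 enters the counts but is not reported here on its own), BRD9 and, per partner list, up to 4 called genes by smallest p. RQCD1 was added for its present name, and BTG1, BTG3, GAS5, ATF4 and ZFAS1 after their values were seen. Gene positions are GENCODE 44 on GRCh37 (hg19), found for 45 of 46 members; DCP1A had none. Promoters come from RefSeq.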

Additional observations from a re-analysis of the deposited data

How the results depend on the processing

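DIS3 and SMG5 kept their calls under all 13 alternatives. With DESeq2 the calls on EXOSC3 (adjusted p = 0.226), SMG1 (0.242), CNOT7 (0.148), CNOT10 (0.114), TOB1 (0.179) and PARN (0.232) were lost. The same members missed the threshold of 0.01. Among named partners, BTG1, PAPD5, LSM3, LSM4, LSM5, SNHG15 and GADD45B also lost their calls with DESeq2. Against 10 members higher and 7 lower, DESeq2 called 6 and 5, a threshold of 0.01 left 6 and 5, and limma on log2(TPM + 1) called 2 and 0. The shares of all genes fell as well, from 20.5% higher and 18.1% lower in the main fit. They were 12.3% and 9.51% with DESeq2, 15.1% and 12.5% at 0.01, and 8.77% and 7.21% with limma on log2(TPM + 1). The same tool on log2(CPM + 1), an alternative chosen after seeing the data, called 10 and 7 (20.4% and 18.3% of all genes). Leaving out a library left 1 library in its group. Fewer members were then called higher in every case, and the shares of all genes called higher and lower fell as well. The calls that remained, of members and of partners, are therefore not read as a robust result. Partners went from 16 higher and 15 lower to 9 and 7 (DESeq2), 7 and 3 (TPM) and 10 and 8 (0.01), and to 10 to 13 higher and 9 to 12 lower with a library left out. The lowest values came without LacZ control replicate 2 (10 and 9). Replicate numbers were not shown to pair the libraries (correlation of deviations -0.05), and a replicate block gave 10 members higher and 9 lower (21.1% and 18.9% of all genes). The median of the members stayed between -0.01 and 0.02. Signs turned in TPM for CNOT6L (0.010), EDC4 (-0.0069), DCP1B (0.041), UPF2 (-0.083) and DIS3L (0.0061), with library totals and with at least 1 CPM in all 4 libraries for EXOSC9 (-0.0029 and -0.0048), and without a filter for DCP1B (0.00035) and EXOSC1 (0.012). With 1 library left out they turned within the ranges of SMG9 (-0.13 to 0.074), DCPS (-0.024 to 0.16), EXOSC9 (-0.040 to 0.051), DIS3L2 (-0.12 to 0.050), DCP1B (-0.19 to 0.20), UPF2 (-0.0020 to 0.098) and EXOSC1 (-0.043 to 0.042). Of these, CNOT6L alone was called. With 2 libraries a group, precision is limited.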
